A study of Homo sapiens with 4 samples.

Results

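The metallothionein gene cluster of human chromosome 16 was examined for occupancy by MTF-1, the metal response transcription factor. Its 10 member genes, MT3, MT2A, MT1E, MT1M, MT1A, MT1B, MT1F, MT1G, MT1H and MT1X, were taken by name from the 19970 protein-coding genes of chromosomes 1 to 22 and X in GENCODE 44 on hg38. All peaks that overlapped a member gene or the 5 kb on either side of it were collected, and these were 22 of the 129429 peaks in the deposited lists. MTF-1 had been mapped by CUT&RUN, in which an antibody tethers a nuclease to the bound factor and the DNA released around it is sequenced. The cells were MDA-MB-231, an established human breast cancer line. The control group was untreated cells, with 2 libraries (0 µM cadmium). The cadmium group was a line selected from the same cells by serial passage in medium with cadmium sulfate, which was raised to 10 µM and then maintained, again with 2 libraries. The cadmium-treated cells are therefore a selected population, and acute exposure was not part of the comparison.

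The libraries of each condition were merged before peaks were called, so each condition has 1 list of peak starts and ends and no measure of signal. Only these lists were used here, and from them neither read numbers nor replicate error can be given, so every difference between the lists described here is a description with no test. Control peaks numbered 69299, occupied 130.4 Mb and were 1399 bp wide at the median. Cadmium peaks numbered 60130, occupied 90.9 Mb and had a median width of 999 bp. Peak edges sit on a grid of 200 bp, and a shift of 200 bp is the smallest that the lists can show.

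Metallothioneins are small cysteine-rich proteins that bind zinc, copper and cadmium through their thiol groups. MT2A and the MT1 genes are expressed in many tissues and are classic targets of induction by heavy metals, whereas MT3 is best known from the brain. MTF-1 is a zinc finger protein that responds to raised zinc and binds the metal response element (MRE), a short sequence repeated upstream of metallothionein genes. Cadmium activates MTF-1 largely by displacing zinc from metallothionein and other proteins. The paper cites earlier work in which MTF-1 activity under cadmium did not rely on the usual MRE. It also saw no enrichment of the MTF-1 motif of the JASPAR motif collection, which it doubts is a true one.

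Metal response element cores were searched for upstream of each member, as TGCACNC or TGCGCNC on either strand. The set of RefSeq (GRCh38.p14) promoter sequences available here held 4 of the 10 members, and all 4 are shown. They include the member with the most cores (MT1H). The transcription start site (TSS) lay inside a peak for MT2A and MT1X, and did not for MT1B and MT1H. Each sequence is the 250 bases before the TSS on the plus strand, and capitals mark the MRE cores. They span chr16:56608334-56608583 for MT2A, chr16:56651636-56651885 for MT1B, chr16:56669564-56669813 for MT1H and chr16:56682220-56682469 for MT1X.
MT2A: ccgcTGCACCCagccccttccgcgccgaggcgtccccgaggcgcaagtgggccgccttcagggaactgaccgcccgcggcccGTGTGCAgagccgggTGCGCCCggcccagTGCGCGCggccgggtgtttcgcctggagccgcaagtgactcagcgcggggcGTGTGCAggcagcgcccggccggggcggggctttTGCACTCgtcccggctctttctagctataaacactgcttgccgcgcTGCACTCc
MT1B: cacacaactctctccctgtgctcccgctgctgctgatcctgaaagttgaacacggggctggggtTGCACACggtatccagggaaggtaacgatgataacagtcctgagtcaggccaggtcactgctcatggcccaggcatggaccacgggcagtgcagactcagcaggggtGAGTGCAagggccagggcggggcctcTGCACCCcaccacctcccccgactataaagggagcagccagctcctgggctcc
MT1H: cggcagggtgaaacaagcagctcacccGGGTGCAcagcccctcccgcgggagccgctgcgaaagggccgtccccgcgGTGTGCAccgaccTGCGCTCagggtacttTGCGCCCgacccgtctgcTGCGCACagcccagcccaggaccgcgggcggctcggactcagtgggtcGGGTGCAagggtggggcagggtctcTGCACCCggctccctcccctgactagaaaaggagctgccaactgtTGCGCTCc
MT1X: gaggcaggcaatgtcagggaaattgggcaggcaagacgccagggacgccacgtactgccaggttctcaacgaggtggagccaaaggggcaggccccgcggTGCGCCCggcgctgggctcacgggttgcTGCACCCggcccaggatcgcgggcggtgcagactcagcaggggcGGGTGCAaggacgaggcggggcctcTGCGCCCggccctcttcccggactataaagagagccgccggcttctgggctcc

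The MT2A sequence held 7 cores, MT1H 8, MT1X 4 and MT1B 3. With the start of the canonical transcript as the TSS, all 10 members had at least 1 core in the 250 bases upstream, and 30.9% of all 19970 protein-coding genes had one. The members held 45 cores in all, with a median of 4.5 per gene, and the median of all genes was 0. MT1F had 6, MT3 and MT1G had 5 each, MT1E and MT1M had 3 each and MT1A had 1. At least 4 cores were found in 6 members and in 0.471% of all genes (94 genes). Of the 19970 genes, 3 had at least as many cores as MT1H, itself included, and 5 had at least as many as MT2A. The paper recounts that the element was first recognized beside mouse metallothionein genes, so its frequency in this family is no independent finding. The GC content of the 10 sequences ran from 62.4% (MT1B) to 74.8% (MT3), and a comparison with genes of similar GC content was not made. With the outermost end of the gene record as the TSS, which lies 454 bases further upstream for MT3, 306 for MT1E and 228 for MT1F, the members held 34 cores and 4 of them had at least 4.

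The cores recurred at similar distances from the TSS, with strands given relative to the gene. A plus-strand core at -53 to -47 and a minus-strand core at -78 to -72 were present in MT1M, MT1G, MT1H and MT1X. MT1B had the first of these and a minus-strand core shifted by 1 base, at -79 to -73. MT1E carried the pair at -52 to -46 and -77 to -71. MT2A had cores at -54 to -48 on the plus strand and -88 to -82 on the minus strand, and MT3 at -52 to -46 and -85 to -79. The only core of MT1A was on the minus strand at -80 to -74 and the cores of MT1F lay at other positions, among them -24 to -18. A match to these letters describes the sequence and does not show a bound site.

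Other consensus strings were fewer upstream of the members. The AP-1 sequence TGACTCA or TGAGTCA was found in MT2A at -104 to -98 and in MT1B at -146 to -140, and in 3.07% of all genes. The antioxidant response element core TGACNNNGC was present in MT2A, MT1B and MT1X, and in 11.4% of all genes. In MT2A it overlapped the AP-1 sequence. The GC box GGGCGG, bound by SP1, was present in all 10 members and in 59.0% of all genes, and the members had 23 in all. The forkhead consensus (ATAAACA, with G for the first base or T for the sixth also allowed) was found in MT2A and MT1E, and in 8.77% of all genes.

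**Figure D1:**
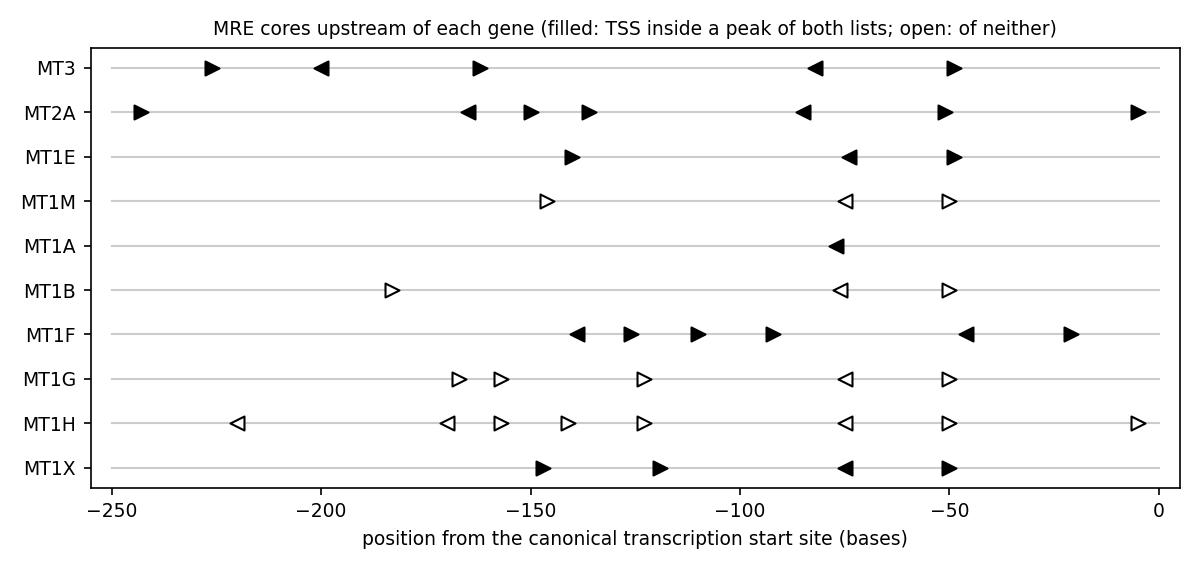
Positions of MRE cores in the 250 bases upstream of the canonical TSS of each member (x axis, bases from the TSS), with triangles pointing right for the plus strand of the gene and left for the minus strand. Filled symbols mark the 6 genes with the TSS inside a peak of both lists (26 cores) and open symbols the 4 genes with it inside neither (19 cores), and both kinds include genes with cores at -53 to -47 and -78 to -72.

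The TSS lay inside an MTF-1 peak for 6 of the 10 members in control cells, and for 6 in cadmium-treated cells. They were MT3, MT2A, MT1E, MT1A, MT1F and MT1X in both lists. Over all protein-coding genes, the share was 63.2% in the control list, 60.8% in the cadmium list and 59.4% in both, so the share of members was near the background. The TSSs of MT1M, MT1B, MT1G and MT1H lay in a peak of neither list. The 26 MRE cores upstream of the first group were all inside a peak in each list. None of the 19 cores upstream of MT1M (3), MT1B (3), MT1G (5) and MT1H (8) was inside a peak of either list. This split of the cores restates the TSS calls and is no separate observation on MRE sites. Every peak over a member TSS reached 273 bp (MT3, control) or more upstream of it, beyond the sequence searched for cores. The TSSs in no peak lay 1315 bp (MT1B, control) or more from the closest peak edge.

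**Figure D2:**
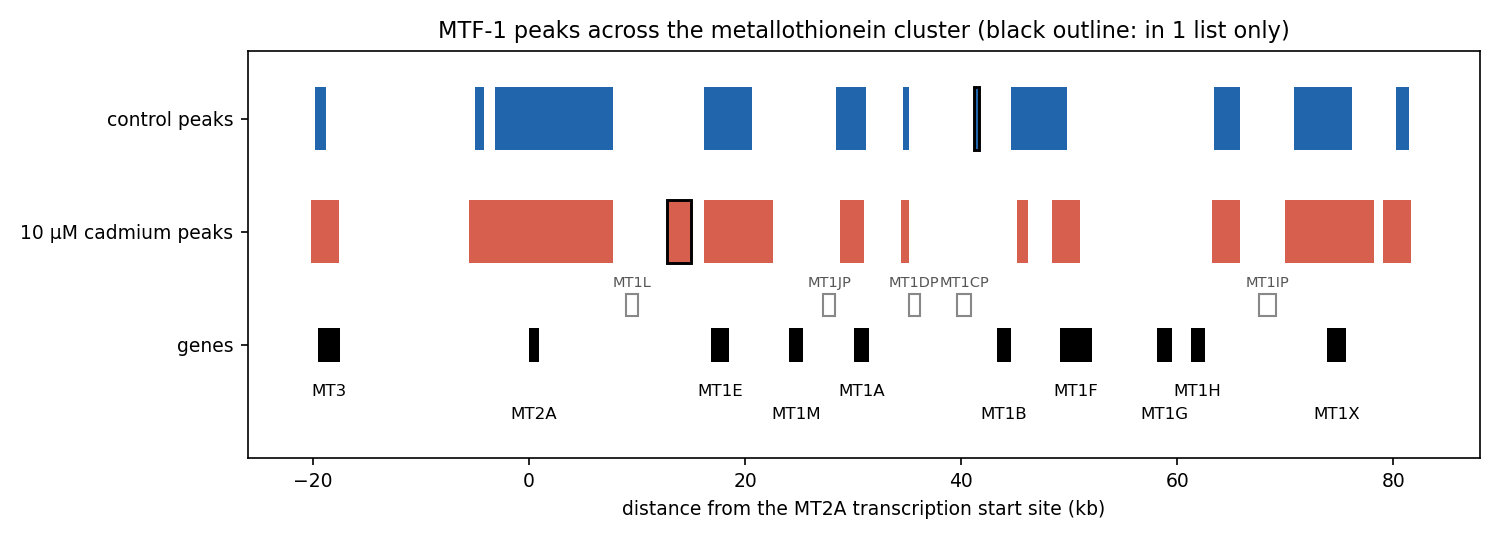
Map of the MTF-1 peaks of control cells (blue) and cadmium-treated cells (red) across the cluster, with the 10 member genes in black and metallothionein pseudogenes as open boxes (x axis, distance from the MT2A TSS in kb). The widest peak of the cluster in each list covers MT2A, peaks are absent over MT1M, MT1G and MT1H, and the 2 outlined peaks are those found in 1 list only.

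MT2A, the main metallothionein of many human tissues, had the widest peaks of the cluster. The gene spans chr16:56608584-56609497 on the plus strand (ENSG00000125148.7). In control cells it lay wholly inside a peak of 10999 bp (chr16:56605401-56616399), and only 400 of the 69299 control peaks (0.577%) were as wide. A second control peak of 799 bp lay upstream at chr16:56603601-56604399. In cadmium-treated cells both were part of 1 peak of 13399 bp (chr16:56603001-56616399), a width reached by 124 of 60130 cadmium peaks (0.206%). The peak reached 3183 bp upstream of the TSS in control cells and 5583 bp in cadmium-treated cells. Its downstream end, 7815 bp from the TSS, was the same in both lists. Coverage of the gene and its flanks was 9896 bp (90.7%) in control cells and 10914 bp, the whole window, in cadmium-treated cells, a ratio of 1.1. Within 5 kb of the TSS, 65 of 19970 genes (0.325%) were covered over at least as many bases in the cadmium list. The peaks also covered the whole of the lncRNA ENSG00000260823, on the minus strand just downstream of MT2A.

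MT1X, an MT1 gene at the far end of the cluster (ENSG00000187193.9, chr16:56682470-56684196, plus strand), was covered over its whole length in both lists. The peak over its TSS was 5399 bp wide in control cells (chr16:56679401-56684799) and 8199 bp wide in cadmium-treated cells (chr16:56678601-56686799). Widths of at least 8199 bp were found for 507 cadmium peaks (0.843%). The peak was longer on both sides in cadmium, by 800 bp upstream and 2000 bp downstream. A second site downstream of the gene was 1199 bp wide in control cells (chr16:56688801-56689999) and 2599 bp wide in cadmium-treated cells (chr16:56687601-56690199). With the part of that site inside the window, coverage was 5795 bp (49.4%) in control cells and 9795 bp (83.5%) in cadmium-treated cells, a ratio of 1.69. The 2000 bp gained downstream by the TSS peak lay within the lncRNA ENSG00000259827, which shares its start with MT1X, whereas 207 bp of the second cadmium peak overlapped it.

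MT1E (ENSG00000169715.15, chr16:56625475-56627112, plus strand) had a peak of 4399 bp in control cells (chr16:56624801-56629199) and 6399 bp in cadmium-treated cells (chr16:56624801-56631199). The upstream edge was at the same position in both lists and the downstream edge was 2000 bp further out in cadmium. The cadmium list also held a peak in the window with no base in the control list, upstream of the gene. Coverage was 4399 bp (37.8%) in control cells and 8598 bp (73.9%) in cadmium-treated cells, a ratio of 1.95, and the gene itself was covered entirely in both.

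MT1F and MT1A had less coverage in cadmium. MT1F (ENSG00000198417.7, chr16:56657731-56660698, plus strand) was covered by 1 control peak of 5199 bp (chr16:56653201-56658399), which reached 4530 bp upstream of the TSS and 668 bp downstream. In the cadmium list the same site was in 2 pieces, 999 bp (chr16:56653801-56654799) and 2599 bp (chr16:56657001-56659599), and the second held the TSS, reaching 730 bp upstream and 1868 bp downstream. Coverage of the MT1F window was thus 5199 bp (40.1%) in control cells and 3598 bp (27.7%) in cadmium-treated cells, a ratio of 0.692. Coverage of the gene itself went the other way, from 22.5% of its bases in control cells to 63.0% in cadmium-treated cells. For MT1A (ENSG00000205362.11, chr16:56638666-56640087, plus strand), the peak over the TSS was 2799 bp in control cells (chr16:56637001-56639799) and 2199 bp in cadmium-treated cells (chr16:56637401-56639599). Both of its edges were further in. Coverage of the MT1A window was 3398 bp (29.7%) against 2998 bp (26.2%), a ratio of 0.882.

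MT3 (ENSG00000087250.9, chr16:56589074-56591088, plus strand), the first member of the cluster, had a narrow peak over its TSS in control cells. The peak was 999 bp wide in control cells (chr16:56588801-56589799) and 2599 bp wide in cadmium-treated cells (chr16:56588401-56590999). It was longer by 400 bp upstream and by 1200 bp downstream, and covered 36.0% of the gene in control cells and 95.6% in cadmium-treated cells. No other peak lay in its window, so coverage was 999 bp (8.31%) and 2599 bp (21.6%). The ratio of 2.6 was the highest of the members. Within 5 kb of the TSS, 126 of the 14809 genes with a control peak there (0.851%) had a ratio at least as high. The same share for the other members ran from 2.83% (MT1E) to 94.1% (MT1B). The median ratio in such windows was 0.842 over all genes and 1.08 over the genes of chromosome 16.

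The 4 remaining MT1 genes had peaks in their windows but not at their start sites. MT1M (ENSG00000205364.4, chr16:56632659-56633981, plus strand) lay between the MT1E and MT1A peaks, with no covered base in the gene. The closest peak edge was 3460 bp upstream of its TSS in control cells and 1460 bp upstream in cadmium-treated cells, and this was the MT1E peak. Coverage of the MT1M window was 3522 bp (31.1%) and 5122 bp (45.2%), a ratio of 1.45.

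MT1B (ENSG00000169688.11, chr16:56651886-56653204, plus strand) had the lowest ratio. The control peak at MT1F began 1315 bp downstream of the MT1B TSS, at the last bases of the gene, whereas the closest cadmium peak began 1915 bp downstream. A control peak upstream of MT1B was absent from the cadmium list. Coverage was 5403 bp (47.7%) in control cells and 2203 bp (19.5%) in cadmium-treated cells, a ratio of 0.408.

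MT1G (ENSG00000125144.14, chr16:56666730-56668065, minus strand) and MT1H (ENSG00000205358.4, chr16:56669814-56671129, plus strand) start close together and point away from each other. Their only peak was downstream of MT1H, 2399 bp wide in control cells (chr16:56672001-56674399) and 2599 bp wide in cadmium-treated cells (chr16:56671801-56674399). Its edge lay 2187 bp from the MT1H TSS in control cells and 1987 bp in cadmium-treated cells. The distances for MT1G were 3936 and 3736 bp. This difference is a single step of the grid. The MT1H window was covered over 2399 bp and 2599 bp, a ratio of 1.08, and the MT1G window over 1065 bp (9.39%) and 1265 bp (11.2%). MT1H, with the most MRE cores of the members, was thus among those with no peak at the TSS.

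**Figure D3:**
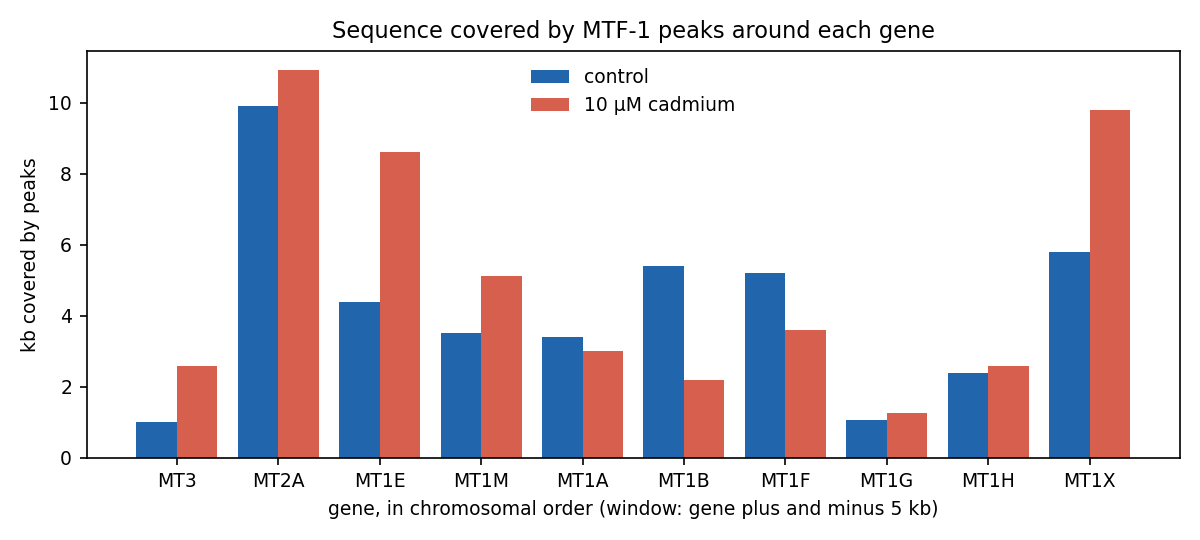
Sequence covered by MTF-1 peaks in each member gene and the 5 kb on either side (y axis, kb), in control cells (blue) and cadmium-treated cells (red), with 1 merged peak list per condition and therefore no error bars. Coverage is higher in cadmium for 7 genes and lower for MT1A, MT1B and MT1F, and it is highest over MT2A in both lists.

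Across the members, coverage was greater in cadmium for 7 genes and greater in control for MT1A, MT1B and MT1F. Of the protein-coding genes with a peak in the same kind of window, 24.9% were covered over more bases in cadmium (4261 of 17145). Within 5 kb of the TSS alone, the share was again 7 of 10 members, and 26.5% of genes. The median ratio of cadmium to control bases was 1.15 for the members and 0.769 for all genes. The median covered share of the members' windows went the other way, from 34.5% in control cells to 27.0% in cadmium-treated cells (36.7% and 32.3% within 5 kb of the TSS). Over all genes the median share was 7.5% in control cells and 5.52% in cadmium-treated cells. The windows of neighbouring members overlap and share peaks, so the 10 values are not independent. Counted once, the windows held 32484 covered bases in control cells (36.7% of 88513 bp) and 41101 in cadmium-treated cells (46.4%), a ratio of 1.27. The difference was positive for the joined windows of MT1E, MT1M and MT1A (3799 bp), for MT1X (4000 bp), for MT3 (1600 bp) and for MT2A (1018 bp). It was -1800 bp for the joined windows of MT1B, MT1F, MT1G and MT1H.

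The 22 peaks formed 11 sites, of which 9 were shared by the lists, 1 was found in control only and 1 in cadmium only. Of the shared sites, 7 were longer in cadmium and 2 in control, the sites at MT1A and MT1F. In the whole lists, 23.7% of the 48627 shared sites were longer in cadmium and 58.0% were longer in control. The shared sites of the cluster covered 34790 bp in control cells and 42390 bp in cadmium-treated cells. Taking the outer edges of each merged site, the largest outward shifts, 2000 bp each, were downstream at the MT1E and MT1X sites. At the peak downstream of MT1H and the peak over the start of the pseudogene MT1DP, only the left edge differed, by 200 bp each. At the MT2A site the outer left edge differed by 600 bp, and the gap between the 2 control peaks was covered in cadmium.

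**Figure D4:**
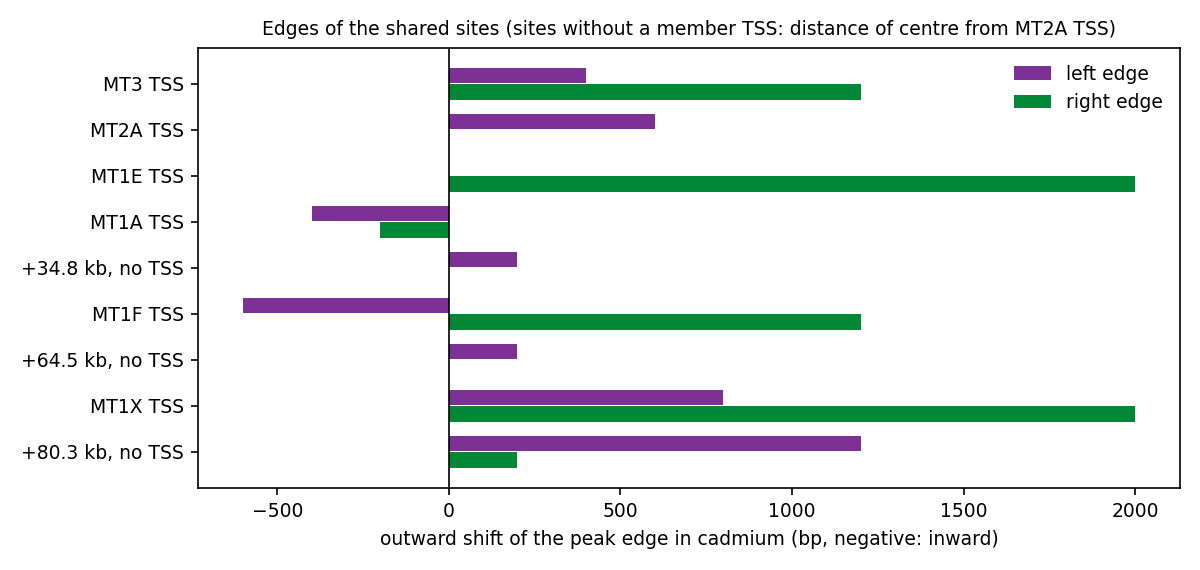
Outward shift of the left and right edge of each of the 9 shared sites (outer edges where a site holds 2 peaks) in the cadmium list relative to the control list (x axis, bp, negative values are inward). Sites are named by the member TSS they hold or by their distance from the MT2A TSS, and the shifts reach 2000 bp at MT1E and MT1X, whereas both edges moved inward at MT1A.

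The cadmium-only peak lay at chr16:56621401-56623599, between the pseudogene MT1L and MT1E, and overlapped no annotated gene. It was 2199 bp wide and its centre was at -2975 bp from the MT1E TSS. It held 5 MRE cores, 1 antioxidant response element core, 2 forkhead sequences and no AP-1 sequence, with a GC content of 47.1%. The parts of the cluster in no peak had 1.92 MRE cores and 1.07 forkhead sequences per kb. For its width, the peak's counts of both were thus near those of uncovered sequence.

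The control-only peak lay at chr16:56649801-56650199, in an intron of the lncRNA ENSG00000259923, with its centre at -1886 bp from the MT1B TSS. It was 399 bp wide, held none of the 5 motifs and had a GC content of 36.3%. A cadmium-only peak was thus present in the window of 1 member (MT1E), and in 20.6% of all protein-coding genes. A control-only peak was present in the window of 1 member (MT1B), and in 33.3% of all genes. Both counts are too small to set the members apart from the background.

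By sequence, the parts of the cluster in peaks of both lists (30512 bp between the start of MT3 and the end of MT1X) had 2.43 MRE cores per kb. The parts in no peak (50611 bp) had 1.92 per kb, those in cadmium only (9600 bp) 1.88 and those in control only (4400 bp) 1.14. The control-only parts held 5 cores and the cadmium-only parts 18, so the last values rest on few matches. The GC content was 50.6% in both lists, 48.9% in no peak, 49.2% in cadmium only and 43.6% in control only. Whether base composition accounts for the densities was not tested.

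The greater coverage in cadmium was shared by the surroundings of the cluster. From the start of MT3 to the end of MT1X (95.1 kb), peaks covered 34912 bp in control cells and 40112 bp in cadmium-treated cells, a ratio of 1.15. The ratio was 1.51 over the 250 kb before the cluster and 2.13 over the 250 kb after it. In the flanks, however, peaks were sparser, covering 4.75% and 5.04% of the sequence in control cells, against 36.7% of the cluster. Of the 9 other protein-coding genes with a TSS within 250 kb, 8 had a peak in their windows and all 8 were covered over more bases in cadmium, and the median ratio was 1.31 over those with a control peak. They included NUP93 (1.24) and HERPUD1 (1.89), and SLC12A3, with 0 bp in control cells and 8395 bp in cadmium-treated cells. MT4, the remaining one, had no peak in either list. Windows of several of these genes overlap, among them NUDT21, OGFOD1 and BBS2, so the 8 values are not independent.

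The whole of chromosome 16 went the same way. Its ratio of cadmium to control bases was 1.11, the only one of 23 chromosomes above 1, and the other values ran from 0.48 on chromosome 11 to 0.993 on chromosome 22. The ratio of the whole lists was 0.697. Among the protein-coding genes of chromosome 16 with a peak, 59.9% were covered over more bases in cadmium (56.3% within 5 kb of the TSS), against 7 of 10 members, and their median ratio was 1.1, against 1.15. Of the shared sites of chromosome 16, 43.2% were longer in cadmium, against 7 of 9 in the cluster. A cadmium-only peak was present for 34.1% and a control-only peak for 18.9% of the chromosome's genes. Of 59 tiles of 1 Mb on chromosome 16 with at least 10 kb of control peaks, 38 had a ratio above 1, and the tile of the cluster, at 1.5, was among the 3 highest. The part of this chromosome-wide difference in the values of the metallothionein genes was not tested. A difference particular to the cluster and one of its chromosome cannot be told apart from these lists.

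**Figure D5:**
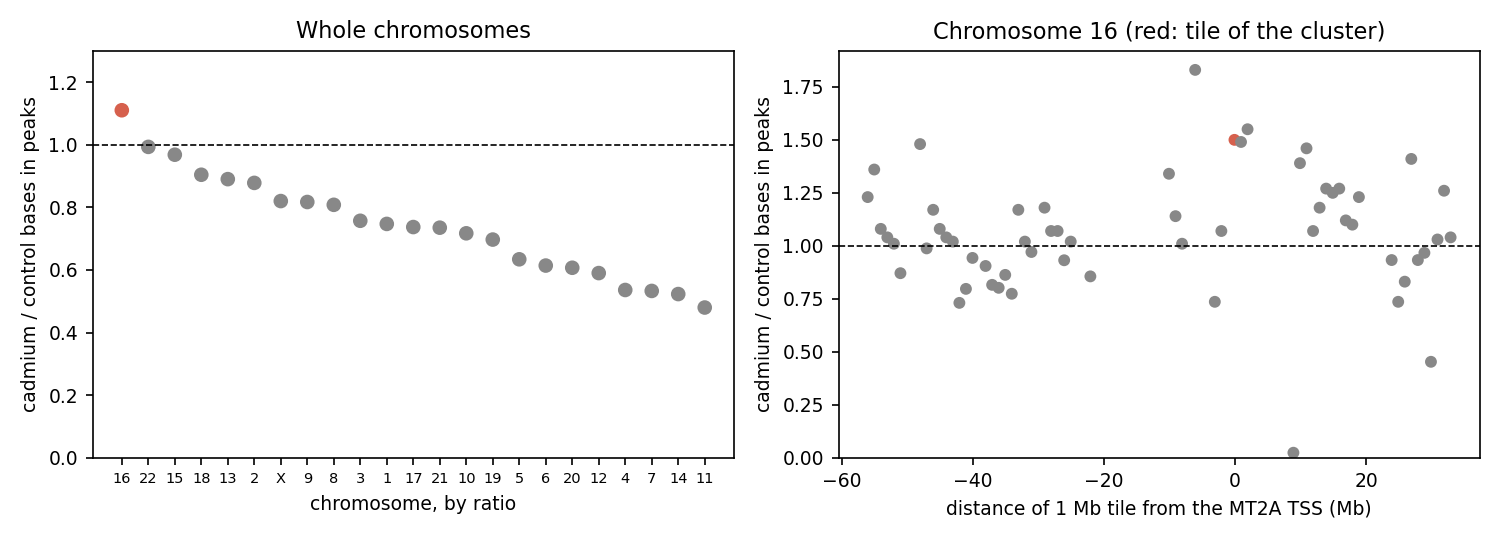
Ratio of cadmium to control bases in MTF-1 peaks, for whole chromosomes in order of the ratio (left) and for 1 Mb tiles of chromosome 16 by distance from the MT2A TSS (right, Mb), with the dashed line at 1. Chromosome 16 (red, 1.11) is the only chromosome above 1, and the tile of the cluster (red, 1.5) lies within a stretch of the chromosome with several tiles above 1.

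The other metallothionein genes and pseudogenes, 12 records in GENCODE 44, were described in the same way. Of these, 9 had a peak in their windows, 2 were covered over more bases in cadmium, 4 over more bases in control and 3 over equal lengths, where 24.9% of protein-coding genes with a peak were covered over more bases in cadmium. MT1JP counts as 2 of the 4, through overlapping records. The 6 records of pseudogenes interspersed among the members share their peaks in part. MT1DP was the only record with the TSS inside a peak of both lists. MT1L was covered over 3837 bp in control cells and 6036 bp in cadmium-treated cells, because the cadmium-only peak near MT1E lies within its window, and MT1CP over 2265 and 1266 bp. Outside chromosome 16, MT2P1, a processed pseudogene on chromosome 4, had 1999 bp and its TSS in a peak in control cells and 0 bp in cadmium-treated cells. MT1XP1 and MT1P3 were covered over the same number of bases in both lists (1987 and 2599 bp), and MT1HL1 and MT1P1 had no peak.

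A list of 15 other genes of metal handling and oxidative defence was described by the same counts. The TSS lay in a peak of both lists for 10 of the 15, coverage was greater in cadmium for 5 and greater in control for 10, and the median ratio was 0.889. The shares over all protein-coding genes, 59.4% and 24.9%, and their median ratio of 0.769 apply here too, and these counts do not set the list apart. SLC30A1, the zinc exporter of the plasma membrane and a known MTF-1 target, was covered over 5198 bp in control cells and 3399 bp in cadmium-treated cells (0.654). MTF1 itself had a ratio of 0.821. GCLM, a subunit of the enzyme that starts glutathione synthesis, had 1.64 and its catalytic partner GCLC had 0.698. For HMOX1, the stress-induced heme oxygenase, coverage was 1798 bp in control cells and 4436 bp in cadmium-treated cells (2.47), and the nearest peak edge was 240 bp from the TSS in control cells and the TSS lay inside a peak in cadmium-treated cells. These genes lie on other chromosomes than the members.

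The members are a family of similar sequences, and reads that match several of them can be placed at the wrong copy. Of the start positions in the cluster, 95.4% had a 50-base sequence found once in the genome on either strand, and 4416 of 95123 positions did not. For 1700 of these, every copy lay within the cluster. With 150-base sequences, close to the length of a read before trimming, 14 positions were repeated. Adaptors were trimmed before alignment, so aligned reads may be shorter than 150 bases, and their lengths are not known here. The repeated share of 50-base sequences was greatest in the gene bodies of MT1M, with 84.8% unique, and MT1E, with 88.9%. Around the TSS (500 bases on either side), the unique share was lowest for MT3 (94.5%), and it was 95.5% for MT1M and 99.4% to 99.7% for MT1B, MT1G and MT1H, which had no peak there. The share was 95.4% in the parts covered in both lists, 96.1% in cadmium only, 94.7% in control only and 95.3% in no peak, so covered and uncovered parts differed by less than 2 percentage points.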

How the data were processed

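MTF-1 CUT&RUN was done in 2 control and 2 cadmium-treated libraries of MDA-MB-231 cells. The authors trimmed adaptors, aligned paired-end reads to hg38 with Bowtie2, merged replicates with SAMtools 1.8 and ran Epic2 at default settings on the merged alignments, which joins enriched bins of 200 bp. The tool list of the submitters' processing notes gives SICER 0.0.50, the algorithm that Epic2 implements. The deposited lists give peak starts and ends in base pairs and no signal. How reads with several matches were placed, and any control library, are not given in the sources used here. Merging removes any measure of replicate spread, and the lists do not give the depth of each library, so differences in depth between the lists could not be corrected.

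Peaks sharing at least 1 base were called shared. Coverage was computed over each gene plus and minus 5 kb, with the outermost end of the GENCODE 44 gene record as TSS, using Python 3.11.15, numpy 2.4.6 and pandas 2.3.3. Motifs were searched as strings on both strands in sequence read with pysam 0.24.0, and promoters shown are from RefSeq. Overlap, motif and uniqueness steps were tested on simulated data, and overlaps were checked with bedtools 2.31.1. No test was run, since the 2 lists used here hold no replicates. All 10 members are named, together with other metallothionein records, the neighbours within 250 kb and the metal-handling list. Members and lists were chosen with earlier results of these data known. Alternatives were other windows, TSS definitions, peak widths and overlap rules. Only the peak lists were used here.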

Additional observations from a re-analysis of the deposited data

How the results depend on the processing

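Of 26 alternatives to 8 results, 23 stayed within a factor of 1.5 of the value reported. A reversal of direction could be scored only for the ratio of cadmium to control bases, and none occurred there. The bases covered in cadmium were 25344 with windows of 2 kb, against 41101 with 5 kb. Under a rule that a shared peak has 50% or more of its length in the other list, 2 control and 3 cadmium peaks were unique, against 1 of each. The ratio of cadmium to control bases in the windows ran from 1.08 (2 kb windows) to 1.32 (peaks of at least 1000 bp), against 1.27 as reported. A fall to 1.08 counts as unchanged under the factor of 1.5. With peaks of at least 1000 bp, MT3 no longer had its TSS in a control peak, which left 5 members. With 500 bases upstream, the members held 44 MRE cores in place of 34.

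No paired analysis was possible because the peak lists used here were called on merged replicates, and leaving out 1 library was not run. The lists hold no depth, height or replicate, so the error of each position and width is unknown.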
